A study of Capra hircus with 3 samples.

Results

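The E90 library of fetal goat dorsal skin held 530 cells in which 8 genes of the upper epidermis together gave at least 1% of the cell's counts, out of 6931 E90 cells (7.65%, exact binomial interval 7.03 to 8.30) and 20676 cells in all libraries. The 8 genes were KRT1, KRT10, KRTDAP, SBSN, DSG1, DSC1, CALML5 and KRT4, and the cutoff was 100 counts per 10000 counts of the cell (CP10K). The cells are called suprabasal keratinocytes here. Because measured levels of these genes chose the cells, those levels are given as a description.

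The animals were fetuses of the Northern Shaanxi White Cashmere Goat (Capra hircus), sampled at 3 stages: embryonic days 60, 90 and 120. Back skin at E60 and E90 was dispersed whole with collagenase IV and a pipette, whereas at E120 hair follicles were picked from the skin first and then dispersed with TrypLE. The labels name no genotype and no treatment other than ketamine anaesthesia of the dam. Each stage was 1 library of the 10x Genomics 3′ assay, which counts unique molecular identifiers (UMIs), and held cells of at least 2 fetuses mixed before barcoding. No spread between fetuses can therefore be given, no test was possible, and every interval is an exact 95% interval that covers counting error only.

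The epidermis is renewed from a basal layer that is anchored to the basement membrane and expresses KRT5 and KRT14. Cells that leave this layer switch to the keratins KRT1 and KRT10, build more desmosomes, and later make the proteins, proteases and lipids of the cornified barrier. In fetal skin this stratification runs alongside the formation of hair follicles, and a transient outer sheet, the periderm, covers the epidermis until the barrier is complete. KRT4 is best known from the suprabasal layers of internal stratified epithelia such as oesophagus.

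The E90 library had 30277663 UMIs, and its cells had a median of 3714 UMIs and at least 3000. The suprabasal cells had a median of 3841 UMIs against 3705 in the other E90 cells, and medians of 1231.5 and 1197 genes. The median share of mitochondrial counts was 7.20% in the suprabasal cells and 11.6% in the others, and its part in the differences below was not tested beyond the alternative settings. The E90 library shared 9 cell barcodes with E60 and 13 with E120, and 2 and 1 of the suprabasal cells were among them. No doublet caller was applied.

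The summed level of the 8 genes ran without a gap from low to high levels in E90. It was under 25 CP10K in 2617 cells, 25 to 50 in 3061, 50 to 100 in 723, 100 to 200 in 253, 200 to 400 in 222 and 400 to 800 in 55 cells, with a highest value of 716. The 45 cells just outside, at 90 to 100 CP10K, had a summed KRT1 level of 4293 CPM (counts per 1000000 counts of the set), and the 41 cells just inside, at 100 to 110, had 4421 CPM. SPINK5, which was not used to choose cells, was 734 CPM just outside and 786 CPM just inside. DSP, a desmosomal protein, was 795 CPM just outside and 1188 just inside, and the collagen gene COL1A1 567 and 355. The sum of the 8 genes on either side of the cutoff is close by construction, but single genes need not be. SBSN was 1279 CPM just outside and 1940 just inside, and KRT4 was 806 and 553.

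**Figure D1:**
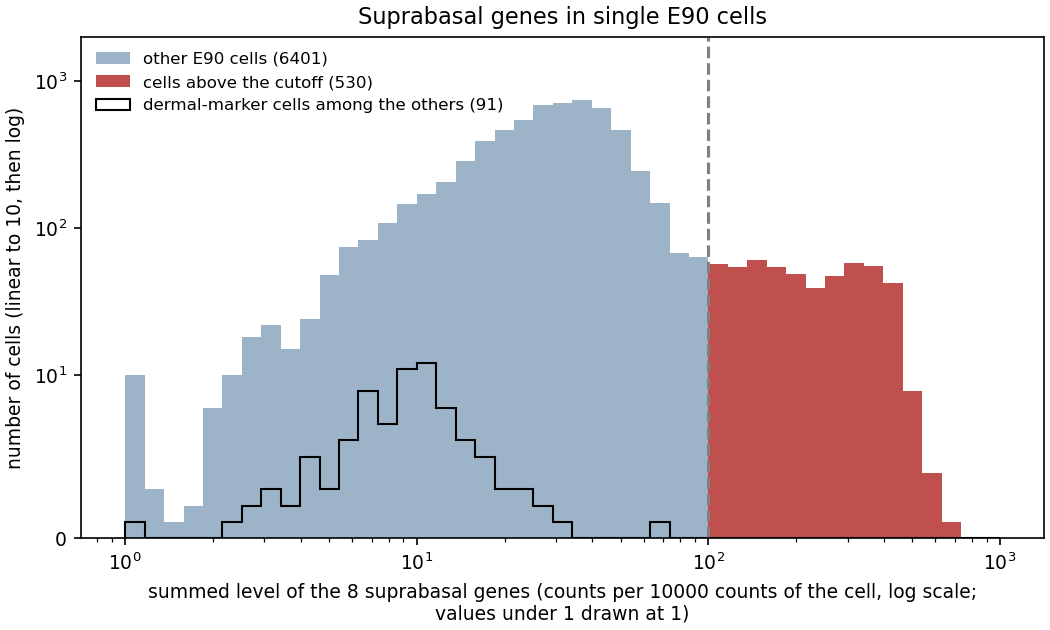
Number of E90 cells (vertical axis, linear to 10 and then logarithmic) by the summed level of the 8 suprabasal genes (horizontal axis, counts per 10000, log scale), with the dashed line at the cutoff of 100. The 530 cells above the cutoff reach 716, while the 91 cells rich in dermal fibroblast genes have a median of 9.14.

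The 8 genes were uneven among the cells they chose. KRT1, a type II keratin of the spinous layer, had a lowest, median and highest level of 14.8, 85.7 and 341 CP10K over the 530 cells, and was seen in all of them. Its partner KRT10 had a median of 38.0 and reached 159. KRT4 was the most uneven keratin: its median was 22.6, its lower quartile 5.17 and its highest value 327 CP10K. SBSN, which encodes the secreted protein suprabasin, had a median of 25.9 and reached 188. KRTDAP, a secreted keratinocyte differentiation protein, had a median of 6.59, and the desmosomal cadherins DSG1 and DSC1 had medians of 6.33 and 2.69. CALML5, a calmodulin-like protein of differentiating keratinocytes, had a median of 0 and was seen in 47.2% of the cells. All 8 genes were seen in 143 cells, and at least 6 in 479 cells (90.4%, against 23.5% of the other E90 cells).

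Counts of these genes were also widespread outside the chosen cells. KRT1 was seen in 97.2% of the other E90 cells and in 92.3% of 91 dermal-marker cells, which had at least 150 CP10K of a list of dermal fibroblast genes. After each cell was thinned to 2000 counts, which left out no cell, the shares were 100% in suprabasal, 86.4% in other and 54.9% in dermal-marker cells. The dermal-marker cells had a median depth of 6969 UMIs. Summed over cells, KRT1 was 11327 CPM in suprabasal, 1242 in other and 472 in dermal-marker cells, and KRT10 was 4939, 369 and 154 CPM. KRT1 made up 43.7% of the counts of the 8 genes in suprabasal cells, 43.3% in other cells and 46.2% in dermal-marker cells. DSG1 made up 2.79%, 10.5% and 8.29% and KRT10 19.1%, 12.9% and 15.1%, so those shares were less alike. How much of the low counts outside the chosen cells was RNA free in the suspension was not tested.

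Genes outside the rule were compared between the 530 suprabasal cells and the 6401 other E90 cells by the log2 ratio of summed CPM + 1. The question was which other genes accompany the 8 that chose the cells. Of 6306 genes that reached 10 CPM in the set where they were higher, 333 were at least 2-fold higher in the suprabasal cells (5.28%) and 234 at least 2-fold lower (3.71%), with a median log2 ratio of −0.10. These shares are the background for the gene lists that follow.

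The label was checked against other genes of the spinous layer. Of 14 listed genes, 10 were matched in the table and 7 passed the level filter, and all 7 were at least 2-fold higher, with a median log2 ratio of 2.27. Of these, LYPD3 reached the filter only in the suprabasal cells, and the 6 that also reached 10 CPM in the other cells were all at least 2-fold higher. SFN, the 14-3-3 protein stratifin, was 165 CPM against 32.5 in the other cells. PERP, a desmosome-associated membrane protein, was 88.8 CPM against 15.9, 5.59-fold higher (4.72 to 6.60). KRT80, a keratin of differentiating epithelia, was 133 CPM against 32.7.

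Desmosomes, the junctions that bind keratinocytes to each other, showed the same direction. Of 9 listed genes outside the rule, 8 were matched and 6 passed the filter, and 5 of these were at least 2-fold higher (median log2 ratio 1.33). JUP, PKP1 and DSG3 reached the filter only in the suprabasal cells, and of the 3 genes that reached it in both sets DSP and DSC3 were higher. DSP, the plakin that ties keratin filaments to desmosomes, was 1324 CPM in suprabasal cells, 373 in other E90 cells and 73.7 in dermal-marker cells. It was seen in 95.5% of suprabasal and 67.0% of other cells, and in 85.1% and 46.9% at 2000 counts per cell. DSC3 was 156 CPM against 73.7. DSG2, the cadherin of simple and basal epithelia, was 16.4 CPM against 17.0, a ratio whose interval (0.677 to 1.34) includes 1.

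Of 16 tight and adherens junction genes, 12 were matched and 8 passed the filter, and CLDN4, OCLN and CDH1 were at least 2-fold higher, OCLN having reached the filter only in the suprabasal cells. CLDN4, a claudin of tight junctions in the upper epidermis, was 105 CPM against 16.6, 6.30-fold higher (5.38 to 7.37). CLDN1, the claudin needed for the epidermal water barrier, was 822 CPM against 437, which is 1.88-fold (1.79 to 1.97) and below the 2-fold limit.

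Those genes of the granular layer and cornified envelope that could be matched were present at low levels. Of 28 listed genes, 12 were matched and 4 passed the filter, and all 4, CNFN, CASP14, PPL and EVPL, were at least 2-fold higher, PPL having reached the filter only in the suprabasal cells. Their list summed to 263 CPM in the suprabasal cells and 58.9 in the others. The plakins EVPL and PPL, which form the scaffold of the envelope, were 48.8 and 38.3 CPM, 4.44-fold (3.55 to 5.51) and 3.89-fold (3.03 to 4.94) higher than in the others. CASP14, the protease that processes filaggrin, was 51.8 CPM against 17.5. CDSN, SPRR4, TGM5 and TCHHL1 had no count in the suprabasal cells. Loricrin, filaggrin and involucrin were listed but had no matching symbol, so their levels are not known here.

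Proteases and their inhibitors summed to 3119 CPM against 574, with 5 of 8 tested genes at least 2-fold higher and none at least 2-fold lower. SPINK5 encodes LEKTI, the inhibitor that restrains epidermal kallikreins. It was 1816 CPM in suprabasal cells, 213 in other E90 cells and 67.4 in dermal-marker cells, 8.53-fold higher than in the others (8.20 to 8.87). It was seen in 97.7% of the suprabasal cells, with up to 150 counts in a single cell, and in 90.0% at 2000 counts per cell against 35.1% of other and 8.79% of dermal-marker cells. KLK10, a kallikrein-related peptidase, was 810 CPM against 149. KLK12 was 166 CPM against 41.9, while KLK7, the chymotryptic kallikrein of the cornified layer, was 35.8 CPM against 16.8. CSTA, the cysteine protease inhibitor cystatin A of the cornified envelope, was 114 CPM against 16.2 and was seen in 20.2% of the cells.

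Lipid enzymes of the barrier were detectable but mostly low. Of 26 listed genes, all 26 were matched and 11 passed the filter, and 7 were at least 2-fold higher. Of these, ALOX12B, ABHD5, SPTLC3 and LIPK reached the filter only in the suprabasal cells, which left 3 of 7 genes higher among those that reached it in both sets. CERS3, the synthase of ultra-long-chain ceramides, was 61.4 CPM against 11.9. SULT2B1, which makes cholesterol sulfate, was 100.6 CPM against 21.6, and ABHD5, the activator of lipolysis needed for acylceramides, was 25.7 against 6.31. LIPK, an epidermal lipase, was 23.1 CPM against 1.68, from 55 counts in the suprabasal cells. ELOVL3, SDR9C7 and SMPD1 had no count in these cells.

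Among 29 transcription factors of keratinocyte differentiation, 25 were matched and 14 passed the filter, and 6 were at least 2-fold higher, of which GRHL3 reached the filter only in the suprabasal cells. ZNF750, a factor that drives terminal differentiation, was 65.6 CPM against 22.1. KLF5, an epithelial Krüppel-like factor, was 561 CPM against 250.5. KLF4, needed for the barrier in mouse skin, was 1073 CPM against 666, which is 1.61-fold (1.54 to 1.68). HES1, the Notch target that maintains spinous cells, was 809 CPM against 412, or 1.97-fold (1.87 to 2.06). Of 7 tested Notch genes, HES1 included, none was at least 2-fold higher and DLL1 was at least 2-fold lower, with a median log2 ratio of −0.52. DLL1 had 21 counts in the suprabasal cells and reached the filter only in the other cells. The receptor NOTCH3 was 68.6 CPM against 59.7 and the ligand JAG1 119.5 against 115, while the ligand JAG2 was 49.7 against 88.3. HES1 gave most of the list's sum of 1156 CPM, against 837 in the others.

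The growth factor AREG, an EGF receptor ligand, was 374 CPM against 91.3, 4.09-fold higher (3.79 to 4.42), and HBEGF was 60.6 against 23.0. Of 10 EGF family genes, 5 were tested, and ERBB3, EREG, AREG and HBEGF were at least 2-fold higher, the first 2 having reached the filter only in the suprabasal cells. Among S100 and calcium-binding genes, S100A11 was 2434 CPM against 757 and ANXA1, the calcium-dependent annexin of the cornified envelope, 377 against 111. S100A4, a member known from mesenchymal cells, was 36.2 against 76.0.

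By the rule for named genes (at least 100 CPM in the higher set), the 12 with the largest ratio were SERPINA12, LYPD2, CRBP2, SPINK5, PDZK1IP1, CSTA, HTATIP2, CNFN, CLDN4, KLK10, PLBD1 and RAB25. SERPINA12, the serpin vaspin that inhibits kallikreins, was 159 CPM (143 to 175) in suprabasal cells, 9.10 in the others and 4.70 in dermal-marker cells, 17.4-fold higher than in the others (14.8 to 20.5). It was seen in 39.1% of the suprabasal and 3.84% of the other cells, and in 22.8%, 1.80% and 2.20% of suprabasal, other and dermal-marker cells at 2000 counts per cell. Without thinning 3.30% of the dermal-marker cells had a count. LYPD2, which encodes a Ly6-domain surface protein, was 920 CPM against 74.9, and 71.3% of the suprabasal cells had a count. CRBP2 was 183 CPM against 15.2. RAB25, a small GTPase of epithelial membrane recycling, was 119 CPM against 22.5. PDZK1IP1, HTATIP2 and PLBD1 were 204, 108 and 213 CPM against 28.1, 16.1 and 40.3. Counts of PDZK1IP1 were absent from the dermal-marker cells, and HTATIP2 and PLBD1 were 3.14 and 4.70 CPM there.

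**Figure D2:**
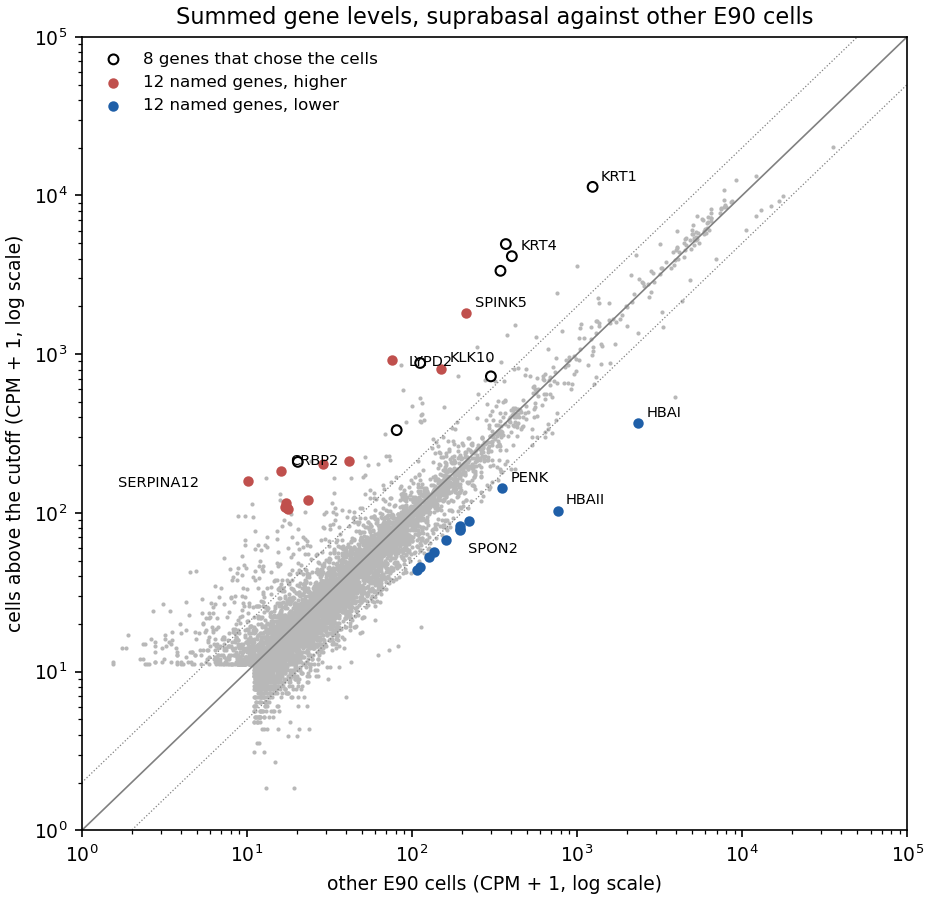
Summed level of each tested gene in the 6401 other E90 cells (horizontal axis) and in the 530 suprabasal cells (vertical axis), both as CPM + 1 on log scales, with dotted lines at 2-fold. Open circles are the 8 genes that chose the cells. Red points are the 12 named higher genes, among them SPINK5 at 1816 against 213 CPM, and blue points are the 12 named lower genes, among them HBAI at 367 against 2336 CPM.

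The 12 genes with the smallest ratio were HBAII, HBAI, SPON2, PTH1R, DEPP1, PENK, ACTA2, GEM, NOVA1, OTOR, RARRES2 and EMP3. The alpha globins HBAI and HBAII, genes of red blood cells, were 367 and 102 CPM in suprabasal cells and 2336 and 762 in the others. Within the suprabasal set 244 of the 872 HBAI counts were in a single cell, and 7 of the 530 cells had at least 1% haemoglobin counts, against 301 of the other cells. Of the remaining 10 genes, 9 were higher in dermal-marker cells than in the other E90 cells as a whole. PENK, a neuropeptide precursor, was 142 CPM in suprabasal, 351 in other and 988 in dermal-marker cells. The exception was DEPP1, at 88.4, 220 and 29.8 CPM.

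Markers of other cell types also had counts in the suprabasal cells, and dermal fibroblast genes had the most. All 9 matched genes of the dermal fibroblast list had counts in the suprabasal cells, and the list summed to 2094 CPM there, 4056 in the other cells and 21729.7 in dermal-marker cells. COL1A1 was 318, 704 and 4263 CPM in the same order. COL1A1 was seen in 70.4% of the suprabasal cells and in 84.4% of the others, and the source of these counts was not tested. Lists for endothelial cells (60.2 CPM), myeloid and Langerhans cells (35.3), mast cells (24.0), melanocytes (61.9) and Merkel cells (25.7) were each under 100 CPM in sum, as they were in the other E90 cells (99.1, 37.9, 46.8, 85.7 and 37.2 CPM in the same order). The myeloid sums had a ratio of 0.932 (0.737 to 1.16), and C1QA, a complement gene of macrophages, was 16.4 CPM against 7.99. Of their markers, CLDN5, TIE1, CD74, HDC, MS4A2 and TYRP1 had no count in the suprabasal cells. Removing cells with at least 60 CP10K of the dermal list left 310 genes at least 2-fold higher and 182 lower.

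Cell cycle genes were lower in the suprabasal cells. Of 22 listed, 18 were matched and 14 were tested, none was at least 2-fold higher and AURKB, MCM5 and RRM2 were at least 2-fold lower, with a median log2 ratio of −0.75. AURKB had 17 counts in the suprabasal cells and reached the filter only in the other cells. The list summed to 491 CPM against 811 in other E90 cells. TOP2A, the DNA topoisomerase of dividing cells, was 134 CPM against 192, and 37.4% of the suprabasal cells had a count (23.6% at 2000 counts per cell, against 29.7% of the other and 7.69% of dermal-marker cells). MCM5, a subunit of the replicative helicase, was 37.5 CPM against 79.2.

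The 6401 other cells mix many cell types, so a second comparison used cells chosen among them by basal keratins. These were the 415 other E90 cells with at least 30 CP10K of KRT5, KRT14 and KRT15 together. They had a median of 3977 UMIs and 8.63% mitochondrial counts. Follicle cells were not removed from this set. Its follicle epithelium list summed to 1626 CPM, against 1335 in the 6401 other cells and 917 in the suprabasal cells. Against them, 228 of 6328 genes were at least 2-fold higher in the suprabasal cells (3.6%) and 250 at least 2-fold lower (3.95%), with a median log2 ratio of −0.13. Scaling by the median of ratios moved that median to −0.01 and gave 283 higher and 192 lower genes, so the balance of the directions depended on the scaling.

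Genes of attachment to the basement membrane were lower in suprabasal than in basal-keratin cells. Of 15 genes of the basal layer list, 14 were matched and 9 were tested with the 3 selecting keratins left out. Of these, 5 were at least 2-fold lower: TP63, COL17A1, ITGA6, ITGB4 and LAMB3. TP63, ITGB4 and LAMB3 reached the filter only in the basal-keratin cells. ITGB4 and LAMB3 had 6 and 10 counts in the suprabasal cells and 24 and 57 in the basal-keratin cells. ITGA6, a subunit of the hemidesmosomal integrin, was 22.7 CPM in suprabasal cells against 78.3 in basal-keratin cells, 3.44-fold lower. COL17A1, the hemidesmosomal collagen, was 53.9 CPM against 112. TP63, the factor that maintains the basal state, was 26.4 CPM in basal-keratin cells and 3.30-fold lower in suprabasal cells. The log2 ratio of COL17A1, −1.04, was nearer to the 2-fold limit than the difference between the scalings, and those of the other 4 genes were not. Against all other E90 cells the basal layer list was not lower as a whole. Of 11 genes tested there, KRT5 was at least 2-fold higher and LAMB3 and POSTN at least 2-fold lower. The median log2 ratio was 0.19. The list, basal keratins included, summed to 2888 CPM in suprabasal and 2542 CPM in the other cells.

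The 8 named genes with the largest ratio against basal-keratin cells were SERPINA12, CRBP2, LYPD2, SPINK5, CNFN, TSPO, SGK1 and CKB. SERPINA12 was 159 CPM against 6.36, CRBP2 183 against 7.83 and LYPD2 920 against 47.4. SPINK5 was 1816 CPM against 204, 8.91-fold higher (8.05 to 9.87). SGK1, a serum- and glucocorticoid-regulated kinase, was 202 CPM against 47.0, a fold between 3.45 and 5.41, and CKB, the brain-type creatine kinase, was 200 against 46.5. The 5 protease genes that were at least 2-fold higher in the first comparison were at least 2-fold higher here too: SPINK5, KLK7, KLK10, KLK12 and CSTA.

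The 8 with the smallest ratio were HBAII, DLK1, PTHLH, S100A2, IGFBP5, HBAI, FST and IGFBP6. S100A2, an S100 protein of basal keratinocytes, was 242 CPM in suprabasal and 867 in basal-keratin cells, 3.59-fold lower. PTHLH, the parathyroid hormone-related peptide made by keratinocytes, was 32.0 CPM against 129. DLK1, a delta-like membrane protein, was 25.2 CPM against 103. The activin inhibitor FST was 120 CPM against 364, and the binding proteins IGFBP5 and IGFBP6 were 54.3 and 35.3 CPM against 186 and 105. Follicle epithelium genes were lower as well: of 9 tested, LHX2, SOX9, SEMA3E and SHH were at least 2-fold lower and none at least 2-fold higher. SOX9, a factor of follicle progenitors, was 314 CPM against 641. The part of follicle cells among the basal-keratin cells in these differences was not tested. LHX2 and SOX9 had log2 ratios of −1.03 and −1.02, again nearer to the limit than the difference between the scalings.

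Several epithelial genes that stood out against all other cells did not stand out here. DSP was 1324 CPM against 740, AREG 374 against 246, KLF5 561 against 430 and CDH1 58.1 against 49.9, all under 2-fold. Of 6 tested desmosome genes outside the rule none was at least 2-fold higher and DSG2 was at least 2-fold lower, at 16.4 CPM against 36.2. The ratio of DSG2 was also nearer to the limit than the difference between the scalings. KRT8 and KRT19, keratins of simple epithelia and periderm, were 33.7 and 16.4 CPM against 90.0 and 79.7. Dermal fibroblast genes were not lower than in basal-keratin cells: the list summed to 2094 CPM against 1777. The melanocyte, myeloid and endothelial lists summed to 61.9, 35.3 and 60.2 CPM against 17.6, 12.7 and 40.1, with intervals of the ratio of 2.43 to 5.21, 1.77 to 4.50 and 1.14 to 1.99. PMEL, MLANA and TRPM1 of the melanocyte list were at least 2-fold higher, each having reached the filter only in the suprabasal cells. The part of these cell types in the differences was not tested.

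The level of the 8 genes also ordered other genes among the suprabasal cells themselves. SPINK5 was 1030.4 CPM (968 to 1095) in the 253 cells of 100 to 200 CP10K, 1943 (1858 to 2030) in the 222 cells of 200 to 400 and 3687 (3489 to 3894) in the 55 cells of 400 to 800. LYPD2 was 363, 1047 and 2138 CPM in the same bands, and KLK10 was 555, 850 and 1421. DSP was close in the first bands, at 1187 and 1274 CPM, and 1858 CPM in the highest. CNFN was 72.0 and 72.1 CPM in the lower bands and 299.7 CPM (245 to 363) in the highest.

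KRT14 behaved differently from KRT5. It was 1781 CPM (1699 to 1865) in the cells of 100 to 200 CP10K, above the 844 CPM of the cells of 50 to 100, and 351 (315 to 389) and 342 CPM in the higher bands. KRT5 stayed between 629 and 729 CPM over the 3 bands. KRT17, a keratin of follicle and periderm, was 5940.2, 4628 and 3148 CPM. The cell cycle list summed to 608, 433 and 328 CPM along these bands. The mitochondrial list was 85716, 66523 and 40573.5 CPM, the dermal list 2647, 1832 and 1287 CPM, and the haemoglobin list 864, 236 and 59.9 CPM, so these moved with the level of the 8 genes as well. Median depth was 3593, 4066.5 and 5090.0 UMIs. Their part in the trends was not tested.

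**Figure D3:**
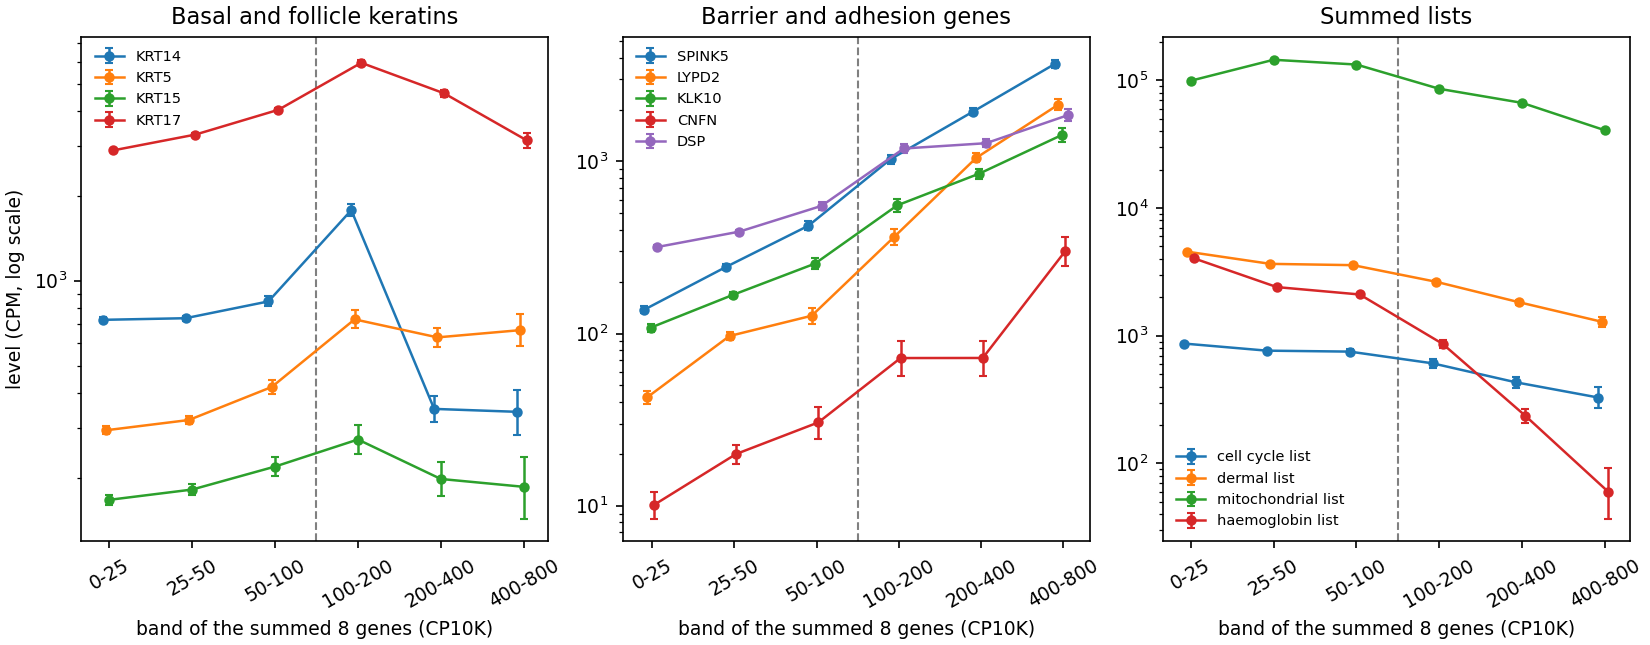
Levels in CPM (vertical axes, log scale) of keratins, barrier and adhesion genes, and summed gene lists in E90 cells grouped by the summed level of the 8 suprabasal genes (horizontal axes, CP10K), with the dashed line at the cutoff and bars for exact 95% counting intervals. SPINK5 goes from 1030.4 to 3687 CPM above the cutoff, whereas KRT14 goes from 1781 to 342 CPM.

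The suprabasal cells were not all led by the same keratin. Counts of KRT1 were the highest of the 8 genes in 423 cells, KRT4 in 69, KRT10 in 21 and SBSN in 17, with 13 ties given to the first in the order listed above. The KRT4-led cells had 13197 CPM of KRT4 and 6087 of KRT1, and the KRT1-led cells 2938 and 12766. Median depth was 3726 and 3908 UMIs and median mitochondrial share 7.13% and 7.18%. The median sum of the 8 genes was 262 CP10K in the KRT4-led and 205 in the KRT1-led cells, and its part in the differences was not tested.

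The KRT4-led cells were compared with the KRT1-led cells after this split had been seen. Of 6493 genes outside the rule, 451 were at least 2-fold higher (6.95%) and 599 at least 2-fold lower (9.23%). These counts hold much counting noise, since the KRT4-led cells had 299468 counts in all: thinning each cell to 2000 counts gave 694 and 1160.

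LYPD2 was 2434 CPM (2261 to 2618) in KRT4-led and 727 CPM in KRT1-led cells, and 97.1% and 67.4% of the cells had a count. A single KRT4-led cell held 153 of the 729 counts. CNFN, the cornified envelope protein cornifelin, was 394 CPM against 46.5, in 29 of 69 cells and with 44 of 118 counts in a single cell. NPPB, the precursor of a natriuretic peptide, was 457 CPM against 9.92, from 137 counts in 16 of 69 cells, 45 of them in a single cell, against 19 counts in 18 of 423. S100A8, an antimicrobial calcium-binding protein of stressed and mucosal epithelia, was 150.3 CPM against 27.1, from 45 counts in 17 of 69 cells, 11 of them in a single cell. CSTA was 200.4 CPM against 66.8, with 20 of 60 counts in a single cell, and KLK10 1716 against 648, with 69 of 514. MAP28, a cathelicidin, had 36 counts in 10 of the 69 cells, 11 of them in a single cell.

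Basal keratins were lower in summed level in the KRT4-led cells. KRT5 was 247 CPM (194 to 310.2) against 733, from 74 counts in 46 of 69 cells. KRT14 was 427 CPM (357 to 508) against 923, from 128 counts in 42 cells. Median levels per cell were 2.57 against 6.13 CP10K for KRT5 and 2.39 against 3.29 for KRT14. The highest KRT14 level was 82.3 CP10K in a KRT4-led cell and 167.7 in a KRT1-led cell. Of 10 tested genes of the basal layer list, KRT5, KRT14, ITGA6 and LAMA3 were at least 2-fold lower and none at least 2-fold higher. ITGA6 and LAMA3 had 3 and 1 counts in the KRT4-led cells, and LAMA3 reached the filter only in the KRT1-led cells. Not all barrier genes followed KRT4. SPINK5 was 2348 CPM against 1784, SERPINA12 194 against 163, and CASP14 3.34 against 56.9, with 1 KRT4-led cell having a CASP14 count. Cell cycle genes were higher in the KRT4-led cells, at 685 CPM against 446 in sum (ratio 1.53, 1.31 to 1.79). Of 14 tested, CCNB2, AURKB and RRM2 were at least 2-fold higher and none at least 2-fold lower, with a median log2 ratio of 0.82. CCNB2 and AURKB had only 6 and 4 counts in the KRT4-led cells, against 15 and 10 in the KRT1-led cells. Both reached the filter only in the KRT4-led cells, and the median includes them. TOP2A was seen in 42.0% and 35.9% of the cells.

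Sorting the 530 cells by KRT4 as a share of KRT1 and KRT4 counts showed a stepwise pattern for LYPD2. LYPD2 was 250.5 CPM in 184 cells with a share under 10%, 698 in 168 cells of 10 to 30%, 1391 in 99 cells of 30 to 50% and 2293 in 79 cells above 50%. NPPB was 8.72, 8.17, 13.97 and 405 CPM over these steps, so its high level was in the last. CNFN was 63.6, 64.0, 63.9 and 358 CPM. The group above 50% holds all 69 KRT4-led cells by definition, so it largely restates their counts. These include the 45 NPPB counts and the 44 CNFN counts that lay in single cells. KRT17 was highest where the KRT4 share was lowest, at 7928 CPM against 3141 CPM above 50%. KRT14 followed no order, at 891, 640, 1790 and 526 CPM.

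**Figure D4:**
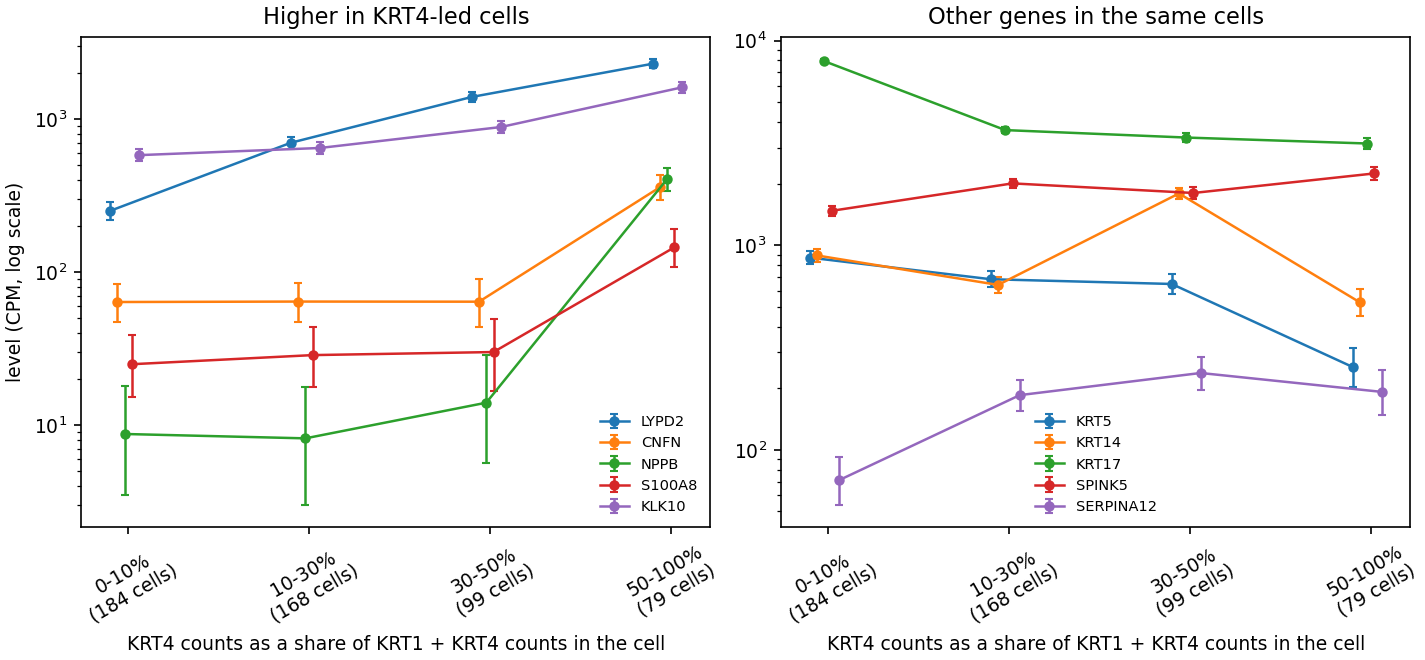
Levels in CPM (vertical axes, log scale) in the 530 suprabasal cells grouped by KRT4 counts as a share of KRT1 plus KRT4 counts (horizontal axes, with the number of cells), with bars for exact 95% counting intervals. LYPD2 goes from 250.5 to 2293 CPM in steps, whereas NPPB and CNFN are high only in the last group shown, at 405 and 358 CPM. That group holds all 69 KRT4-led cells.

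The 17 SBSN-led cells were few, with 86237 counts, and are described without a count of genes. They had KRT17 at 11874 CPM, KRT14 at 3316 CPM (2943 to 3724) and CSTA at 928 CPM, against 5005, 923 and 66.8 CPM in KRT1-led cells. MMP7, the matrix metalloproteinase matrilysin, was 731 CPM (561 to 935) against 33.4, from 63 counts in 13 of the 17 cells. GPRC5A, a membrane receptor of epithelia, was 255 CPM, from 22 counts in 11 of 17 cells, against 13.6. The T-box factor TBX3 had 10 counts in 7 of the 17 cells. CNFN was 429 CPM and was seen in 14 of 17 cells. THEM5, a thioesterase gene at 444 CPM in KRT1-led cells, had 1 count in the SBSN-led cells, and CRBP2 and SERPINA12 had 1 and 2 counts there. The median sum of the 8 genes in these cells was 113 CP10K, nearer to the cutoff than the 205 of KRT1-led cells.

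Across stages the same cutoff chose very different numbers of cells. At E60 it chose 0 of 6849 cells, which allows a share of up to 0.0438% by the limit of 3 counts and 0.0538% by the exact interval, and the highest cell had 39.5 CP10K. At E120 it chose 63 of 6896 (0.914%, 0.703 to 1.17). Over all cells of a library the 8 genes summed to 6.53 CPM at E60, 4674 at E90 and 829.9 at E120. Stage and dispersion cannot be told apart at E120, where only dissected follicles were used, and numbers of cells and RNA per cell cannot be told apart in these whole-library sums.

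The 63 E120 cells differed from the E90 cells in both the 8 genes and others. SBSN was 11615 CPM and KRT1 1683 CPM there, against 3350 and 11327 in the E90 cells, and SBSN made up 66.9% of the counts of the 8 genes. KRT4 was 1.85 CPM and LYPD2 0.924 CPM, from 2 and 1 counts, against 4142 and 920 at E90. SPINK5 was 2071 CPM at E120 and 1816 at E90. Genes of the hair shaft and inner root sheath summed to 155867 CPM at E120 and 69.9 CPM at E90. KRT71, a keratin of the inner root sheath, was 74149.6 CPM at E120 and had 2 counts in the E90 cells, and CST6, an inhibitor of cysteine proteases in the cornifying layers, 25629 against 88.4. KLK7 was 2297 CPM against 35.8 and CASP14 873 against 51.8. The E120 cells are therefore not called suprabasal keratinocytes here.

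**Figure D5:**
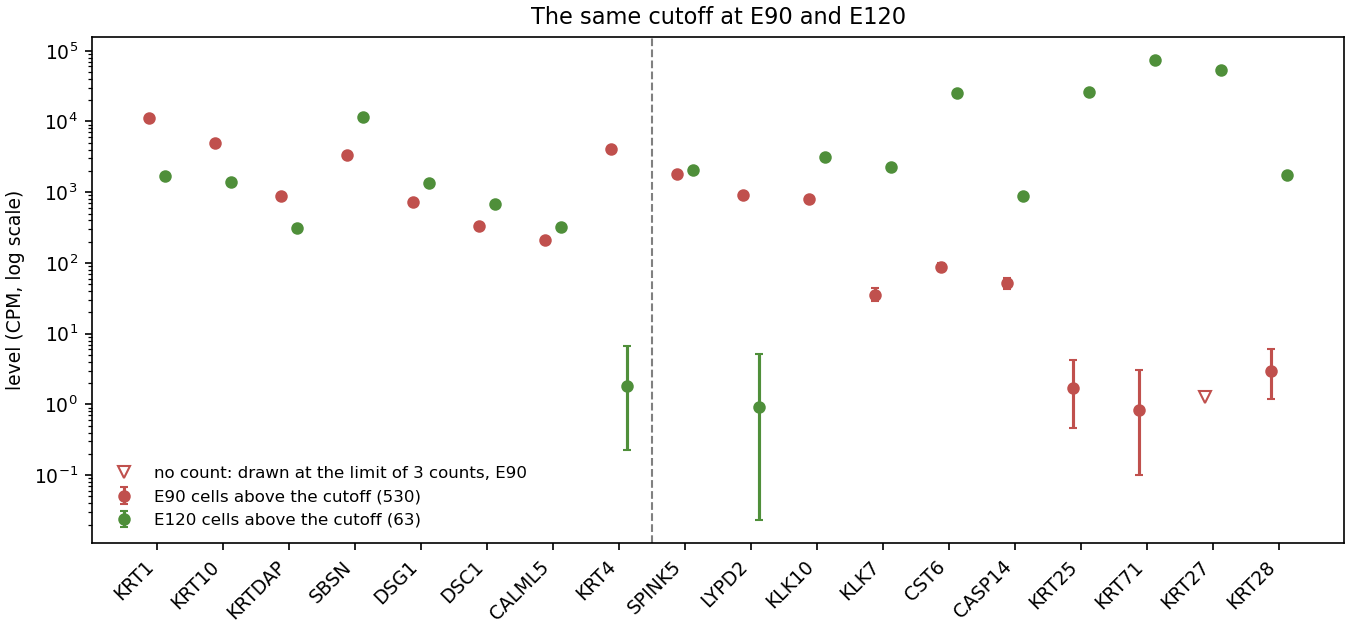
Levels in CPM (vertical axis, log scale) of the 8 selecting genes, left of the dashed line, and of barrier and inner root sheath genes, right of it, in cells above the same cutoff at E90 (530 cells) and E120 (63 cells), with exact 95% counting intervals and an open triangle, for KRT27 at E90, at the limit that a count of 0 allows. KRT4 and LYPD2 are at 4142 and 920 CPM at E90 and under 2 CPM at E120, while KRT71 is at 74149.6 CPM at E120.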

How the data were processed

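The deposited table held natural log values, which the authors had made per the values themselves by scaling each cell's counts to a sum of 10000 and adding 1 before the log. Cell Ranger 3.0.2 is named in the submitters' processing notes; the genome build and the treatment of reads shared by similar genes such as keratins are not given in the sources used here. UMI counts were recovered by inversion, and 100% of nonzero values came out whole within a tolerance of 0.01. Of 16739 genes, 12709 had a symbol, 11897 of them in RefSeq ARS1.2, and unnamed genes were counted but not named. The table held 20676 cells, whereas the design text states 19705, and all were used. Total counts were 65049552, 30277663 and 93403291 at E60, E90 and E120.

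Counts were summed over each set of cells, scaled to CPM and compared as the log2 ratio of CPM + 1, for genes of at least 10 CPM in the higher set, without the genes that chose the sets. A fold of at least 2 was counted. Cells are not replicates and each stage was 1 library, so no test was run. Intervals are exact Poisson, exact binomial (Clopper-Pearson) or conditional exact intervals for ratios, at 95%. An upper limit for a count of 0 is 3 counts of the total. Named genes are the 12 highest and 12 lowest by ratio against other cells, 8 and 8 against basal-keratin cells and 8 and 8 between KRT4-led and KRT1-led cells, of which the text gives most, among genes with a symbol and at least 100 CPM in the higher set; examples from the 26 lists outside the rule have at least 20 CPM in the higher set, and a few genes below that are named because a count of 5 or fewer includes them. The split by leading gene and the cutoff of 30 CP10K for basal-keratin cells were chosen after the data had been seen, because the planned cutoff of 100 left 3 cells. Genes were thinned with a fixed seed (Python 3.11.15, numpy 2.4.6, scipy 1.17.1). The comparison script was checked on simulated data. Members and lists were chosen with earlier results of these data known.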

Additional observations from a re-analysis of the deposited data

How the results depend on the processing

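The cutoff and the cells admitted moved the share of suprabasal cells, which was 18.1% at 50 CP10K, 3.997% at 200 CP10K, 6.94% with the 6 markers without CALML5 and KRT4, 15.2% after a filter that kept cells of 1000 genes or more and no more than 10% mitochondrial counts, and 8.54% without cells of at least 60 CP10K of the dermal list (added after seeing the data). Genes at least 2-fold higher than in other E90 cells were 165 at a cutoff of 50 CP10K, 183 with a pseudocount of 10 CPM, 593 with no minimum level and 130 with a minimum of 50 CPM. Genes at least 2-fold lower than in other E90 cells were 23 at 50 CP10K, 658 at 200 CP10K, 645 with the filter on genes and mitochondrial counts, 149 with every cell weighed the same, 48 with a pseudocount of 10 CPM, 661 with no minimum and 62 with a minimum of 50 CPM. Against basal-keratin cells, higher genes were 137 at 50 CP10K, 109 with a pseudocount of 10 CPM, 702 with no minimum and 82 with a minimum of 50 CPM. Lower genes there were 145 at 50 CP10K, 530 at 200 CP10K, 393 with the filter, 68 with a pseudocount of 10 CPM, 754 with no minimum and 61 with a minimum of 50 CPM. Between KRT4-led and KRT1-led cells, the higher and lower genes were 86 and 212 with a pseudocount of 10 CPM, 1220.0 and 3320.0 with no minimum, 55 and 65 with a minimum of 50 CPM, 694 and 1160.0 after thinning, and the higher genes 278 at 50 CP10K. Apart from the level filter and the pseudocount, which change the genes that can be counted by construction, the cause was not tested. Of the 24 genes named against other cells, 14 were still past 2-fold at a cutoff of 50 CP10K, and all 24 without the 6% of cells with the most UMIs. Of the 16 named between KRT4-led and KRT1-led cells, 13 were past 2-fold without those cells, 12 after thinning and 11 at 50 CP10K. Among the ratios of named genes, 695 stayed within the counting interval of the reported value, 217 moved outside it and 0 changed sign. Of the list medians, 796 stayed within the counting error of the list's summed ratio and 459 moved beyond it, and among medians of at least 2-fold 1 changed sign. The median of the melanocyte list against basal-keratin cells was 1.70 and reversed to −0.80 at a cutoff of 200 CP10K, and the cause was not tested. Basal-keratin cutoffs of 100 and 200 CP10K left 3 and 1 cells and were not run. At the median depth of 3714 UMIs per cell, a gene of a few CPM has a count in few cells. Counting error of its summed level depends on the counts of the set. It is larger in small sets such as the KRT4-led cells, with 299468 counts. No paired analysis was possible because each stage was 1 library and no result came from a test.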

Other observations

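The listed retinoid and vitamin D genes, which did not include CRBP2, were split in the suprabasal cells. Of 7 tested, RDH12, a retinol dehydrogenase, was 61.4 CPM against 10.6 in other E90 cells, 5.79-fold higher (4.72 to 7.08), and 17.6 in basal-keratin cells. The binding proteins CRABP1 and CRABP2 were 300 and 187 CPM against 636 and 399, and 283 and 190 in basal-keratin cells. In dermal-marker cells CRABP1 was 1783 CPM.

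MGST1, a microsomal glutathione transferase listed here with sebaceous genes, was 1111 CPM in suprabasal cells, 246 in other and 397 in basal-keratin E90 cells. It was the only 1 of 4 tested sebaceous genes that was at least 2-fold higher than in other cells, and PPARG, the adipogenic and sebocyte factor, was at least 2-fold lower. Along the bands of the 8 genes MGST1 was 661, 1335 and 1741 CPM. THEM5 was 420 CPM against 114 in the other cells, 3.69-fold higher (3.44 to 3.97).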
